A study of Rattus norvegicus with 12 samples.

Results

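The transcripts described here encode 5 proteins of the contractile apparatus and cytoskeleton of heart muscle, namely cardiac troponin T (Tnnt2), cardiac troponin I (Tnni3), troponin C (Tnnc1), alpha-tropomyosin (Tpm1) and desmin (Des). They were taken from the deposited count table by Ensembl identifier, ENSRNOG00000033734, ENSRNOG00000018250, ENSRNOG00000018943, ENSRNOG00000018184 and ENSRNOG00000019810 in that order, and are 5 of its 32883 genes. The symbols are those under which the identifiers were listed for this work. Neither the table nor the reference used here pairs identifiers with symbols, so the names could not be checked there. All 5 passed the filter on low counts in every comparison, and the smallest count of any of them in any library was 658.

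Troponin and tropomyosin sit together on the actin filament and switch contraction on and off. Troponin C binds calcium, troponin I holds the filament in the off state, troponin T fastens the complex to tropomyosin, and tropomyosin covers the sites on actin that myosin needs. Desmin, the intermediate filament protein of muscle, ties the Z-discs of neighbouring myofibrils to each other and to the cell membrane; smooth muscle also contains desmin and tropomyosin. Cpeb4 belongs to a family of proteins that recognise uridine-rich motifs in the 3′ untranslated regions of messenger RNAs, and it acts on their poly(A) tails and translation.

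Ventricular cardiomyocytes of neonatal Wistar rats, labelled as 2 days old in all groups, were given phenylephrine (PE), an alpha-adrenergic agonist that makes these cells enlarge, for 24 h, or a mock treatment. RNA brought down with an antibody to Cpeb4 (IP) and total RNA (input) were sequenced from transcript 3′ ends, with 3 libraries each of PE IP, PE input, mock IP and mock input. All groups were thus primary cells of 1 strain in culture, no precipitate made without the antibody was analysed here, and the labels do not say whether replicates came from separate cultures, so p-values measure the spread between these libraries, which may be technical. Library totals lay between 2224005 and 30216559 counts in IP and between 1423334 and 29538785 in input. The cardiac markers Tnnt2 and Tnni3 were at 3658 CPM (counts scaled to a common library size of 10⁶) or more in all 12 libraries. Markers of other cell types were not analysed here, since they carry no names in the table.

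Libraries of mock replicate 2 and PE replicate 1 stood apart. The 10 features with the highest mean share of counts took 7.30% of IP PE replicate 1 and 6.23% of IP mock replicate 2, against 11.8% to 19.2% of the other IP libraries. They took 26.6% of input PE replicate 1 and 32.9% of input mock replicate 2, against 42.9% to 59.6% of the other input libraries. A set of 1754 genes had a mean of 5 to 10 CPM in the other libraries, from which it was chosen. Of these genes 37.4% had no count in IP mock replicate 2, 30.2% in input mock replicate 2 and 28.2% in input PE replicate 1. IP PE replicate 1 had 6.67%, within the 0.342% to 10.5% of the other libraries. Results that rest on these 4 libraries are given with and without them. CPM values carry edgeR's TMM factors, which scale libraries so that most genes stay level, unless library totals are named. Tests are edgeR quasi-likelihood tests on all 10491 genes kept, with Benjamini-Hochberg adjustment over all of them and a threshold of 0.05.

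Of the 5 transcripts, Tnnc1 was the one that passed as different between the Cpeb4 precipitate and the input, and it was lower in the precipitate with TMM factors, though not on library totals, where its log2 fold change was 0.23 and did not pass. Its TMM-scaled level was 5077, 4783 and 5145 CPM in PE IP replicates 1, 2 and 3, against 9531, 10795 and 12833 CPM in PE input. In mock cells it was 3946, 7739 and 3741 CPM in IP, against 9980, 8487 and 6487 CPM in input. The PE groups lay apart, and in mock cells IP replicate 2, one of the libraries that stood apart, lay within the input range. Between mock libraries of the same replicate number, Tnnc1 was lower in IP than in input for each of the 3 numbers. The check of their deviations, given below, does not settle whether equal numbers mark pairs. Over both treatments Tnnc1 averaged 5072 ± 1431 CPM in IP and 9685 ± 2141 CPM in input (SD, n = 6 each). The log2 fold change of IP against input was -0.92 (SE 0.20, edgeR adjusted p = 0.0121), a fold of 0.529 with a 95% interval of 0.392 to 0.714. At this threshold 3.62% of all genes tested were lower and 2.26% were higher, 5.88% in all, and 1 of the 5 was lower and 0 were higher. At an unadjusted p under 0.05 it was 2 of the 5, Tnnt2 and Tnnc1, against 18.4% of all genes. Scaled by library totals, 2823 genes were higher and 65 lower, against 237 and 380 with TMM factors.

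The Tnnc1 difference pointed the same way in each treatment with TMM factors. Fitted without pairs on all 12 libraries, it did not pass in either alone. In PE cells the log2 fold change was -1.14 (SE 0.29, edgeR adjusted p = 0.0529), and in mock cells it was -0.69 (SE 0.29, edgeR adjusted p = 0.372). None of the 5 passed in these comparisons, where 2.11% of all genes did in PE cells and 0.743% in mock cells (2.59% in mock cells with input and IP of 1 replicate number as pairs). Fitted as pairs, the mock value of Tnnc1 was -0.76 (edgeR adjusted p = 0.163). Its PE value was then -1.13 (edgeR adjusted p = 0.0235), which passed, where 4.01% of all genes did in PE cells. In the fit without pairs, 1 of the 5, Tnnc1, had an unadjusted p under 0.05 in each treatment. The shares of all genes were 11.7% in PE cells and 10.8% in mock cells. Tnnc1 was also fitted without mock replicate 2 and PE replicate 1, which left 2 libraries per group. Its log2 fold change was then -1.29 in PE cells (edgeR adjusted p = 0.000653), -1.13 in mock cells (0.00338) and -1.21 over both (1.8e-05). In that fit 9.08% of all genes passed in PE cells, 4.82% in mock cells and 14.3% over both. Without IP mock replicate 2 alone the value of Tnnc1 was -1.11 in mock cells (edgeR adjusted p = 0.103) and -1.14 in PE cells (0.00801). There 0.115% of all genes passed in mock cells and 2.9% in PE cells.

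**Figure D1:**
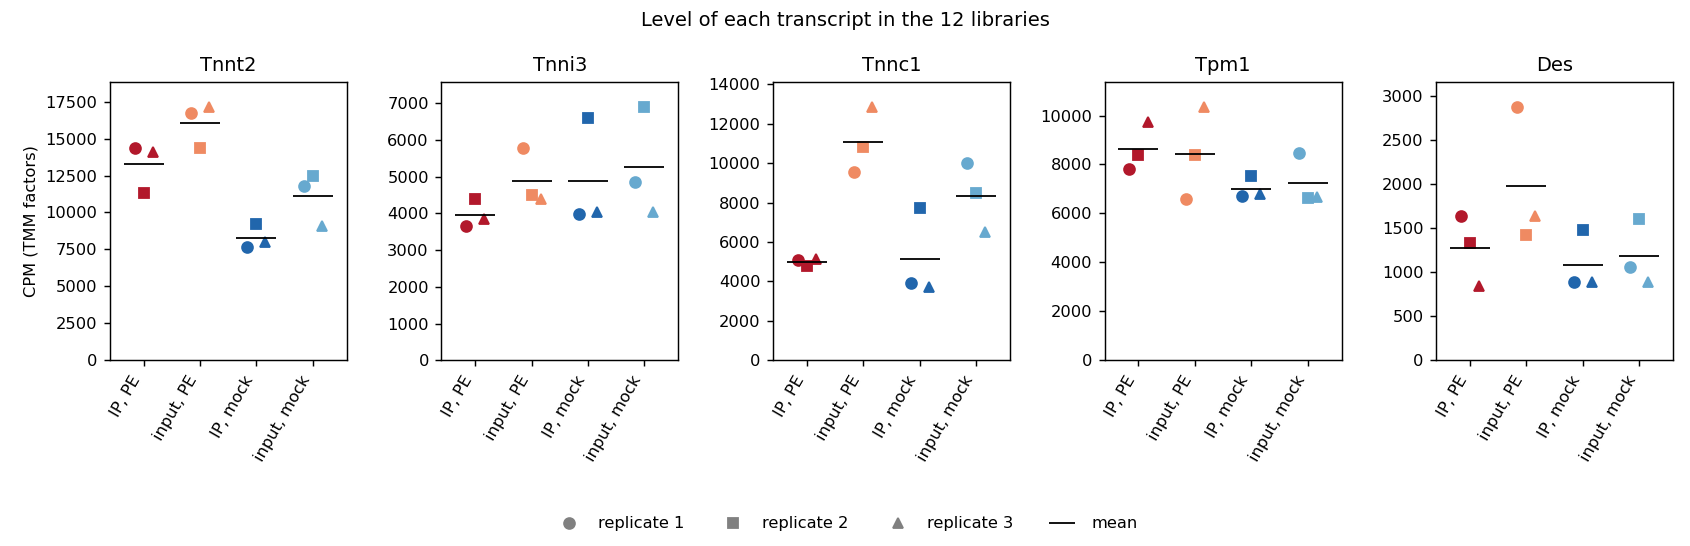
CPM with TMM factors (y axis, from 0, a scale of its own in each panel) of each transcript in PE IP, PE input, mock IP and mock input, 1 symbol per library and a black line at the group mean (n = 3). The PE IP libraries of Tnnc1 sit between 4783 and 5145 CPM, all below the PE input libraries at 9531 to 12833 CPM, and on library totals they lie at 7280 to 8174 CPM, against 7276 to 9128 CPM in PE input.

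Tnnt2, which anchors the troponin complex, had small negative values of IP against input that did not pass. It was at 14333, 11313 and 14101 CPM in PE IP, against 16703, 14339 and 17118 CPM in PE input. In mock cells it was at 7652, 9194 and 8032 CPM in IP, against 11802, 12436 and 9066 CPM in input. On the TMM scale the PE groups did not overlap, by a margin of a few CPM, and the mock groups did. Each of the 3 mock IP libraries lay below the mock input of the same number. Over both treatments the log2 fold change was -0.35 (SE 0.16), with an unadjusted edgeR p of 0.0414 and an adjusted p of 0.244. Its 95% interval was a fold of 0.623 to 0.989.

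Tnni3, the inhibitory subunit, was at 3658, 4377 and 3857 CPM in PE IP, against 5778, 4511 and 4388 CPM in PE input. In mock cells it was at 3989, 6585 and 4046 CPM in IP, against 4840, 6887 and 4033 CPM in input. Replicate 2 was the highest library of both mock groups. The log2 fold change over both treatments was -0.21 (SE 0.19, edgeR adjusted p = 0.683), and the 95% interval was a fold of 0.652 to 1.15. Leaving out 1 library moved it between -0.34 (without IP mock replicate 2) and -0.08 (without input mock replicate 2).

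Tpm1 lay closest to no difference of the 5 on the TMM scale. It was at 7808, 8395 and 9746 CPM in PE IP, against 6591, 8406 and 10339 CPM in PE input. In mock cells it was at 6695, 7515 and 6783 CPM in IP, against 8468, 6641 and 6655 CPM in input. On the TMM scale IP and input overlapped in both treatments. The log2 fold change over both was -0.01 (SE 0.17, edgeR adjusted p = 0.998), with a 95% interval of a fold of 0.779 to 1.27. The Tpm1 gene makes several muscle and non-muscle isoforms, which the table holds as 1 count, so these values do not speak for any single isoform.

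Des, the one member outside the thin filament, was at 1638, 1337 and 844 CPM in PE IP, against 2873, 1421 and 1635 CPM in PE input. In mock cells it was at 888, 1480 and 895 CPM in IP, against 1065, 1604 and 885 CPM in input. Input PE replicate 1, a library that stood apart, held the highest value. Over both treatments the log2 fold change was -0.38 (SE 0.25, edgeR adjusted p = 0.486), with a 95% interval of a fold of 0.534 to 1.11. With 1 library left out it was between -0.52 and -0.22, and -0.22 was the value without replicate 1 of PE input. The groups of PE cells did not overlap for 3 of the 5 transcripts (Tnnt2, Tnni3 and Tnnc1, all lower in IP), where 22.2% of all genes did not overlap and 9.21% did so as lower. That count holds on the TMM scale: with DESeq2 size factors Tnni3 overlapped, its highest PE IP library being at 4151 CPM and its lowest PE input library at 3924 CPM. On library totals Tnnt2, Tnni3 and Tpm1 lay apart as higher in PE IP, and Tnnc1 and Des overlapped. Tnnt2 was at 17219 to 22627 CPM in PE IP, against 9706 to 15997 CPM in PE input. Tnni3 was at 5775 to 6662 CPM in PE IP, against 2488 to 5534 CPM in PE input. Tpm1 was at 12326 to 15483 CPM in PE IP, against 5862 to 6312 CPM in PE input. The share of all genes lying apart on library totals was not counted. With TMM factors the groups of mock cells overlapped for all 5, where 17.9% of all genes did not overlap. With the same factors the 6 IP and 6 input libraries of both treatments overlapped for all 5, where 4.66% of all genes did not overlap. On library totals Tpm1 did not overlap over both treatments, at 9458 to 15483 CPM in IP, against 3475 to 6312 CPM in input. Tnnt2 also lay apart in mock cells on library totals, at 10950 CPM or more in IP, against 10930 CPM or less in input. With TMM factors the median log2 fold change over both treatments was -0.35 for the 5 transcripts and 0.16 for all genes tested.

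**Figure D2:**
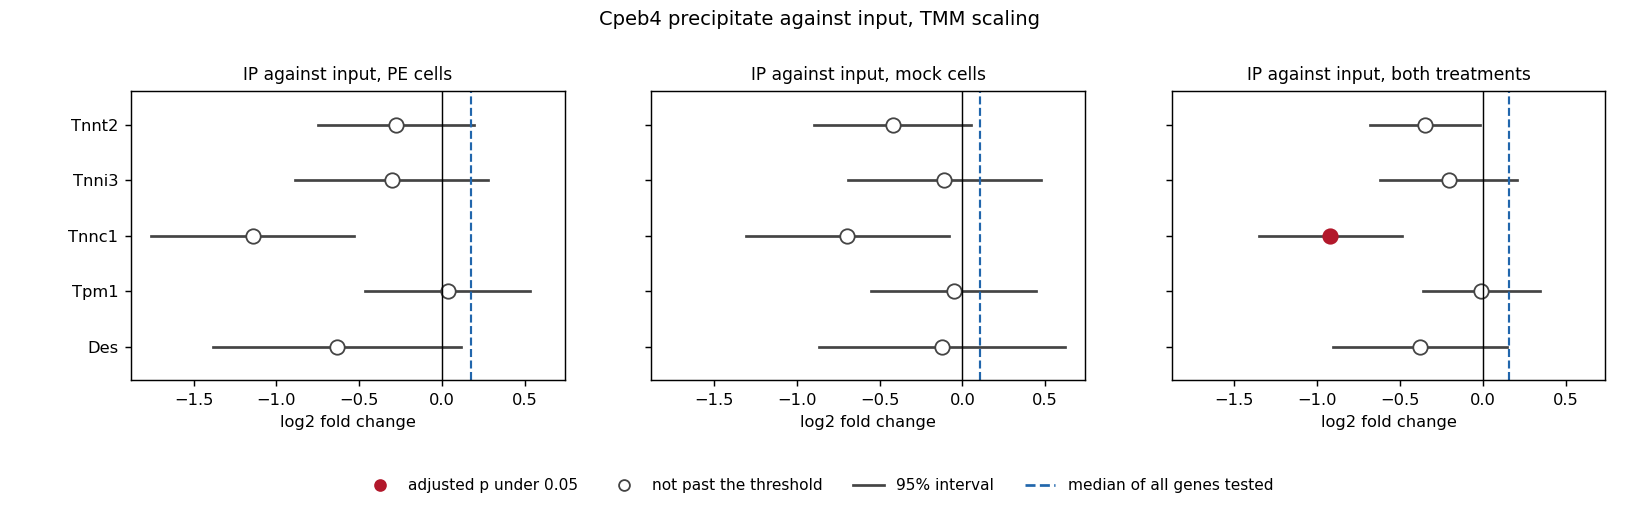
Log2 fold change of IP against input on the TMM scale (x axis) for each transcript in PE cells, in mock cells and over both, with 95% intervals from the edgeR fit of 12 libraries. The filled point, Tnnc1 over both treatments at -0.92, is the one past an adjusted p of 0.05 and lies at 0.23 on library totals; the dashed line is the median of all 10491 genes tested.

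Ratios of the raw counts of 2 transcripts in 1 library do not depend on how libraries are scaled. They are given without a test, and the ratios share members. Tnnc1 over Tpm1 was 0.650, 0.570 and 0.528 in PE IP, against 1.45, 1.28 and 1.24 in PE input. In mock cells it was 0.589, 1.03 and 0.552 in IP, against 1.18, 1.28 and 0.975 in input. Every IP library but mock replicate 2 lay below every input library, and each mock IP library lay below the mock input of the same number. Averaged over log2 values this ratio was lower in IP by a log2 difference of -0.95.

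Tnnc1 was also low relative to the other 3 transcripts in most precipitates. Tnnc1 over Tnnt2 was 0.354 to 0.423 in PE IP, against 0.571 to 0.753 in PE input, and 0.466 to 0.842 in mock IP, against 0.682 to 0.846 in mock input. Tnnc1 over Tnni3 was 1.09 to 1.39 in PE IP, against 1.65 to 2.92 in PE input, and 0.925 to 1.18 in mock IP, against 1.23 to 2.06 in mock input. Within each treatment the IP and input libraries did not overlap for Tnni3. For Tnnt2 they lay apart in PE cells and overlapped in mock cells through IP replicate 2. Tnnc1 over Des was 3.10 to 6.10 in PE IP, against 3.32 to 7.85 in PE input, and 4.18 to 5.23 in mock IP, against 5.29 to 9.37 in mock input, with an overlap in PE cells and none in mock cells. Without mock replicate 2 and PE replicate 1, the 4 IP and the 4 input libraries did not overlap in any of the 4 ratios of Tnnc1. The log2 differences were -0.80 to Tnnt2, -1.03 to Tnni3, -1.06 to Tpm1 and -0.83 to Des. These 4 ratios share Tnnc1. IP mock replicate 2, left out here, was the library through which the ratios to Tnnt2 and Tpm1 overlapped in mock cells. How often ratios of other genes lay apart in this way was not counted. Over all 12 libraries IP and input overlapped in each of these 4 ratios. The log2 differences of Tnnc1 were then -0.60 to Tnnt2, -0.74 to Tnni3, -0.95 to Tpm1 and -0.58 to Des. In the other 6 ratios among the 5 transcripts IP and input overlapped with and without those libraries. Their log2 differences lay between -0.37 and 0.35 over all 12 libraries and between -0.22 and 0.26 without mock replicate 2 and PE replicate 1.

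**Figure D3:**
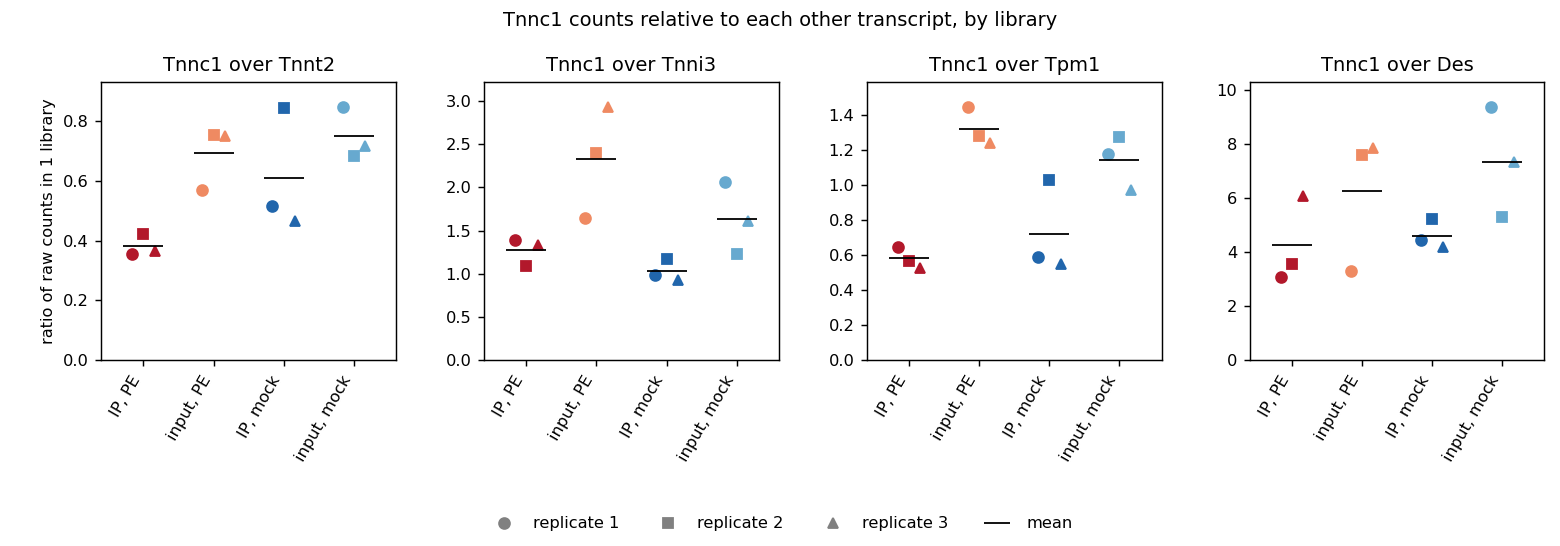
Raw counts of Tnnc1 divided by those of Tnnt2, Tnni3, Tpm1 and Des in the same library (y axis, from 0), by group, 1 symbol per library and a black line at the group mean (n = 3). Against Tpm1, 5 of the 6 IP libraries sit between 0.528 and 0.650, and mock IP replicate 2 sits at 1.03, within the input range of 0.975 to 1.45.

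The direction against input depended on how libraries were scaled. The most abundant features took a smaller share of IP libraries, as given above, and TMM factors were 1.40 to 1.59 in IP, against 0.489 to 0.959 in input. As a share of all counts, the 5 transcripts together made up 5.13%, 4.60% and 5.35% of PE IP libraries, against 3.97%, 2.85% and 2.63% of PE input. In mock cells they made up 3.32%, 4.74% and 3.28% of IP libraries, against 1.77%, 3.17% and 1.42% of input. On library totals the 5 thus took a larger share of each precipitate than of any input of the same treatment. This larger share was not particular to the 5. On library totals their log2 fold changes over both treatments were 0.23 (Tnnc1) to 1.16 (Tpm1). Each lay below 1.31, the median among genes tested on that scale, which was 0.16 with TMM factors.

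On library totals 3 of the 5 transcripts passed as higher in IP over both treatments, where 27.5% of all genes passed in either direction. These were Tpm1 (log2 fold change 1.16, SE 0.21, edgeR adjusted p = 0.00118), Tnni3 (0.86, SE 0.30, adjusted p = 0.0390) and Tnnt2 (0.76, SE 0.25, adjusted p = 0.0292). Tnnc1 was at 0.23 (SE 0.25, edgeR adjusted p = 0.505) and Des at 0.66 (SE 0.35, adjusted p = 0.162). All 5 lay below the median of all genes on each scale. Relative to that median, Tnnc1 was at -1.08 with TMM factors and at -1.08 on library totals, Des at -0.54 and -0.65, Tnnt2 at -0.51 and -0.55, Tnni3 at -0.37 and -0.45, and Tpm1 at -0.17 and -0.15. With TMM factors 14.2% of all genes had a lower fold change than Tnnc1, and 42.6% a lower one than Tpm1.

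**Figure D4:**
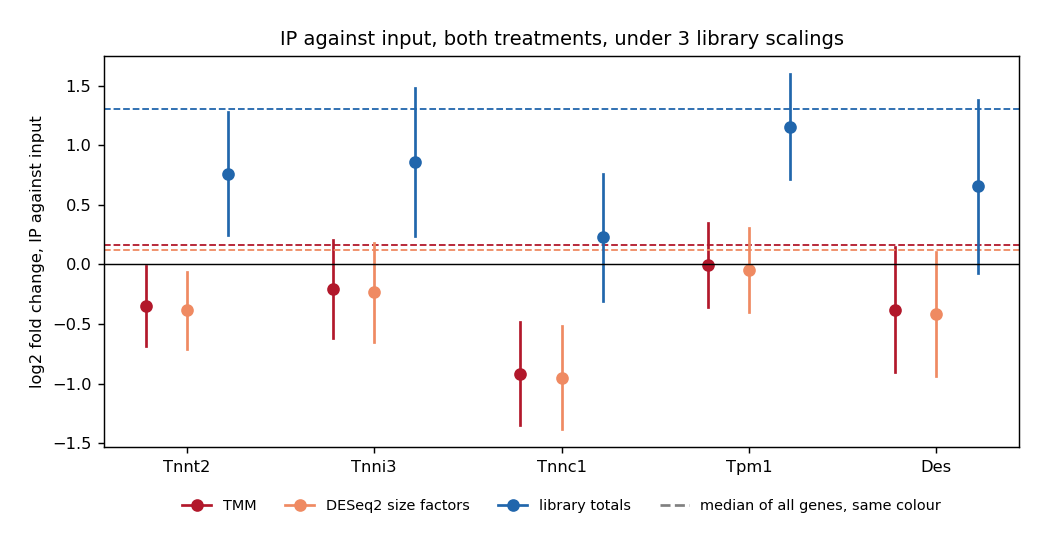
Log2 fold change of IP against input over both treatments (y axis) for each transcript with TMM factors, DESeq2 size factors and library totals, with 95% intervals from the edgeR fit. The dashed lines, the median of all genes in the colour of each scaling, lie at 0.16, 0.12 and 1.31, and all 5 transcripts lie below the line of their own scaling.

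PE against mock asks which transcripts the hypertrophic stimulus altered. None of the 5 passed in either RNA pool, where 0.00953% of all genes did in each, a single gene. In such bulk samples fewer cells of a type and less RNA per cell cannot be told apart. Tnnt2 had the smallest p of the 5 in both pools. In IP it averaged 13249 ± 1681 CPM in PE cells and 8293 ± 803 CPM in mock cells (SD, n = 3 each). The log2 fold change was 0.68 (SE 0.22), with an unadjusted edgeR p of 0.00795 and an adjusted p of 0.725. In input it averaged 16054 ± 1499 CPM in PE cells and 11101 ± 1791 CPM in mock cells (SD, n = 3 each). The log2 fold change was 0.53 (SE 0.22), with an unadjusted edgeR p of 0.0296 and an adjusted p of 1. The 95% intervals were folds of 1.15 to 2.22 in IP and of 1.04 to 2.01 in input. On the TMM scale PE and mock libraries did not overlap in either pool. On library totals they overlapped in input, at 9706 to 15997 CPM in PE cells, against 4734 to 10930 CPM in mock cells. Tnnt2 was the 1 of the 5 at an unadjusted p under 0.05 in each pool, against 5.54% of all genes in IP and 3.57% in input. Without mock replicate 2 and PE replicate 1 its log2 fold change was 0.68 in IP (edgeR adjusted p = 0.134) and 0.58 in input (0.596).

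With all 12 libraries the other 4 transcripts showed no common direction under PE. Des had a log2 fold change of 0.23 (SE 0.35) in IP and of 0.74 (SE 0.35) in input, and the input value of PE replicate 1, at 2873 CPM, was well above the other 2. The value of Des in input was 0.36 without input PE replicate 1, 1.02 without input mock replicate 2 and 0.64 without mock replicate 2 and PE replicate 1 in both pools. Its value in IP was 0.29 without mock replicate 2 and PE replicate 1. Tpm1 had 0.31 (SE 0.24) in IP and 0.22 (SE 0.24) in input, and without mock replicate 2 and PE replicate 1 it had 0.41 and 0.30. Tnnc1 had -0.04 (SE 0.29) in IP and 0.41 (SE 0.29) in input, and without mock replicate 2 and PE replicate 1 it had 0.36 and 0.52. Tnni3 had -0.30 (SE 0.28) in IP and -0.10 (SE 0.27) in input, and without those libraries it had 0.03 and -0.003. Without those libraries the values of these 4 in IP were thus all positive, and none passed. With all 12 libraries the edgeR adjusted p was 1 for each of these 4 in both pools. On the TMM scale the PE and mock libraries of IP did not overlap for Tnnt2 and Tpm1 (2 of the 5, against 14.9% of all genes). Those of input did not overlap for Tnnt2 (1 of the 5, against 9.85%). With DESeq2 size factors Tpm1 overlapped in IP, its lowest PE library being at 6705 CPM and its highest mock library at 6724 CPM.

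Within a library, Tnni3 was low relative to Tnnt2 in every PE library. Tnni3 over Tnnt2 was 0.255, 0.387 and 0.273 in PE IP, against 0.521, 0.716 and 0.504 in mock IP. In input it was 0.346, 0.315 and 0.256 in PE cells, against 0.410, 0.554 and 0.445 in mock cells. The 6 PE libraries lay between 0.255 and 0.387 and the 6 mock libraries between 0.410 and 0.716, with no overlap and a mean log2 difference of -0.78. Of the 10 ratios among the 5 transcripts this was the only one in which PE and mock libraries did not overlap over both pools, and it was singled out after all 10 had been seen. It was not tested, and how often ratios of other genes lay apart in this way was not counted.

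**Figure D5:**
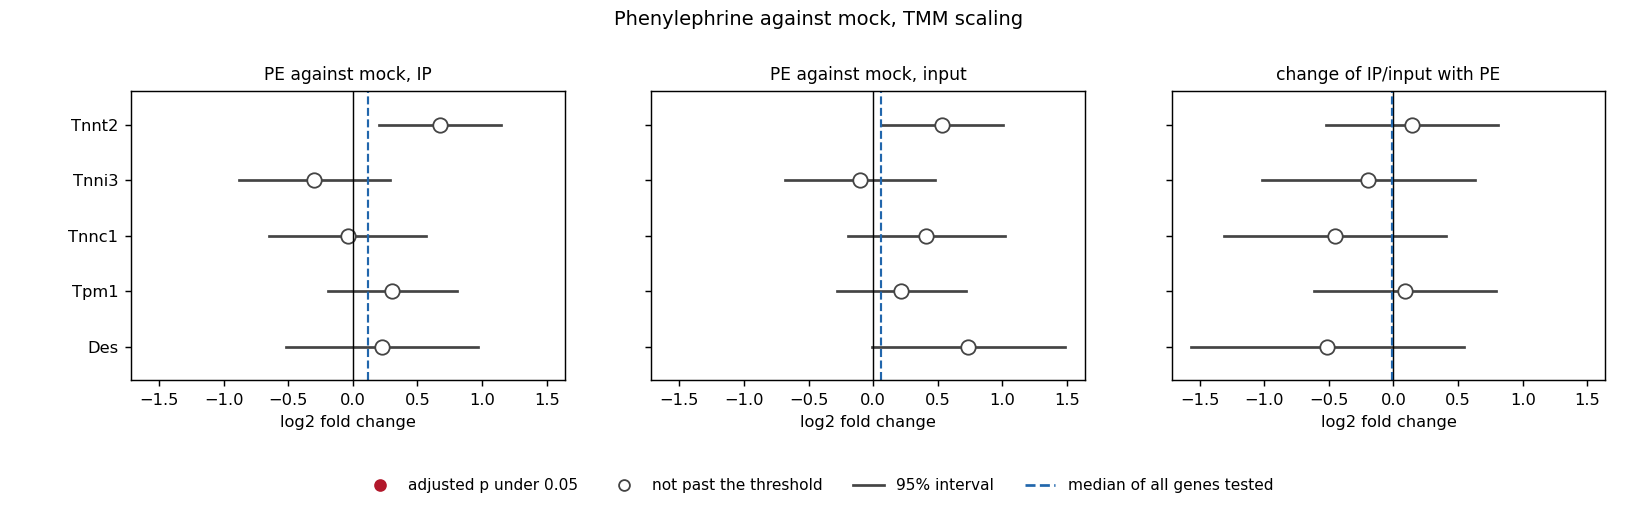
Log2 fold change on the TMM scale (x axis) of PE against mock in IP and in input, and the difference between the IP against input values of PE and mock cells, with 95% intervals from the edgeR fit of 12 libraries. No point is past an adjusted p of 0.05; Tnnt2 lies at 0.68 in IP and 0.53 in input.

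Whether PE altered the recovery of these transcripts with Cpeb4 was tested as the difference between the IP against input values of PE and mock cells. None of the 5 passed (edgeR adjusted p = 1.00 for each), and 0% of all genes did, with 2.58% of all genes and 0 of the 5 at an unadjusted p under 0.05; the DESeq2 Wald test passed 2 genes, neither of them among the 5. The differences were 0.14 for Tnnt2 (95% interval -0.52 to 0.81), -0.20 for Tnni3 (-1.02 to 0.63), -0.45 for Tnnc1 (-1.31 to 0.41), 0.09 for Tpm1 (-0.62 to 0.79) and -0.51 for Des (-1.56 to 0.54), all on the log2 scale. Each interval runs from a negative to a positive difference, so these values neither show nor exclude a change of recovery. With 1 library left out, the difference lay between -0.64 and -0.03 for Tnnc1, -0.03 being the value without IP mock replicate 2. That of Des lay between -0.79 (without input mock replicate 2) and -0.13 (without input PE replicate 1). For Tnnc1 it was -0.16 without mock replicate 2 and PE replicate 1 in both pools.

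Across the 12 libraries the 5 transcripts did not share a single pattern. Pearson's r of log2 CPM between members ran from -0.30 for Tnni3 with Tpm1 to 0.66 for Tnnt2 with Des, a description over libraries that fall into 4 groups and share scaling factors. Tnnc1 had an r of 0.64 with Tnnt2, 0.56 with Des, 0.51 with Tnni3 and 0.33 with Tpm1. Among 5864 other genes at a mean of at least 10 CPM, the 2 most like each member had an r of 0.91 and 0.90 with Tnnt2, 0.92 and 0.91 with Tnni3, 0.97 and 0.93 with Tnnc1, 0.85 and 0.84 with Tpm1, and 0.91 and 0.89 with Des. None of these 10 genes was another of the 5, and none has a name in the sources used here.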

How the data were processed

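The authors deposited 1 table of raw read counts, not normalized, for 32883 Ensembl rat genes; 32883 blank lines were skipped. Libraries were 3′ end libraries made from 200 ng of RNA, per the labels' protocols. Cutadapt 2.5, STAR 2.7, featureCounts 1.6.4, DESeq2 and build Rnor_6.0 are named in the submitters' processing notes; whether strand or multi-mapping reads were considered is not stated there. No coordinates or sequences are printed, since the reference is of another build.

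One edgeR 4.0.16 fit (R 4.3.3) held the means of 4 groups over 12 libraries, after filterByExpr (10491 genes), with TMM factors, robust dispersions and quasi-likelihood F-tests. The standard error was the log2 fold change divided by the square root of F. No 2 libraries of a group agreed within sampling noise (chi-square per degree of freedom at least 7.79). Deviations of same-numbered input and IP libraries correlated at 0.105 to 0.242 in mock cells and at 0.0171 to 0.201 in PE cells. Mock IP replicate 1 with mock input replicate 3 had 0.124, and mock IP replicate 3 with mock input replicate 1 had 0.102. PE IP replicate 3 with PE input replicate 2 had 0.184. The check thus does not settle whether equal numbers mark pairs in either treatment. Input and IP were also fitted as pairs by number, which changed no call among the 5 in mock cells and made Tnnc1 pass as lower in PE cells. Alternatives used DESeq2 1.42.0 and limma 3.58.1. Steps were tested on simulated counts. All 5 genes are named; for likeness the rule took the 2 genes of highest Pearson r per member, whose identifiers are not printed, as none has a symbol. Lists of other sarcomere genes and of cell type markers were drawn up by symbol and could not be used. The members, lists and tests were chosen with earlier results of these data known.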

Additional observations from a re-analysis of the deposited data

How the results depend on the processing

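For Tnnc1 over both treatments (log2 fold change -0.92), the call as lower in IP held under 18 of 19 alternatives with values of -1.21 to -0.83, among them each of the 12 fits without 1 library (edgeR adjusted p 0.000591 to 0.0432). The exception was library totals, which count shares of all counts and gave 0.23, with 0 of the 5 transcripts lower and 3 higher; there Tnnt2 was at 0.76, Tnni3 at 0.86 and Tpm1 at 1.16, and in mock cells Tpm1 at 1.16 passed as the 1 transcript higher, as 1 (Tpm1) did in PE cells at 1.16. In mock cells 1 transcript, Tnnc1, was lower with voom (adjusted p = 0.0126) and without mock replicate 2 and PE replicate 1 (-1.13). In PE cells 1, again Tnnc1, was lower with no filter (-1.14), the DESeq2 Wald test (-1.14), voom (-1.20) and the replicate block (-1.13, edgeR adjusted p = 0.0235). The check used does not settle whether the numbers pair PE libraries. Tnnc1 also passed as lower in PE cells without mock replicate 2 and PE replicate 1 (-1.29). With single libraries left out the number lower in PE cells was 0 to 1, and it was 1 without IP mock replicate 2. Otherwise the replicate block changed no call. What caused these differences between settings was not tested. No alternative gave a call for PE against mock or for the change of enrichment. Over the alternatives, all genes called over both treatments ranged from 3.35% to 27.5%, in mock cells from 0.0113% to 8.12% and in PE cells from 0.592% to 9.08%.

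Each of the 5 had at least 658 counts in every library; depth was not matched between libraries in any fit, so its part in these results was not tested. Leaving out 1 library lets more genes pass the low-count filter, since the smallest group is then smaller.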

Other observations

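Des and Tnni3 kept nearly the same ratio to each other in all mock libraries, whether precipitate or input. Des over Tnni3 was 0.223, 0.225 and 0.221 in mock IP, against 0.220, 0.233 and 0.220 in mock input. In PE cells it was 0.448, 0.306 and 0.219 in IP, against 0.497, 0.315 and 0.373 in input. The 6 mock libraries thus lay between 0.220 and 0.233 although mock replicate 2 stood apart in other respects, and the 6 PE libraries spread from 0.219 to 0.497. These are values singled out after all 10 ratios had been seen, with no test.

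Of the summed counts of the 5 transcripts, Tnnc1 made up 15.6% ± 0.284 in PE IP, against 26.0% ± 2.63 in PE input, and 18.9% ± 4.27 in mock IP, against 25.02% ± 2.25 in mock input (SD, n = 3 each). Tnnt2 made up 41.1% ± 3.37 in PE IP, against 37.9% ± 2.12 in PE input, and 31.8% ± 3.13 in mock IP, against 33.5% ± 0.928 in mock input (SD, n = 3 each), and its IP and input libraries overlapped in both treatments. Tnni3 made up 11.3% to 14.5% in PE IP, against 17.2% to 20.3% in mock IP, with no overlap, and 9.47% to 13.9% in PE input, against 13.4% to 19.1% in mock input, with overlap. These shares add to a whole, so a lower share of one raises the others, and no test was made.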
